A study of Mus musculus with 17 samples.

Results

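The 3 nuclear receptors of the NR4A family (*Nr4a1*, *Nr4a2* and *Nr4a3*) and 7 other genes that cAMP is known to induce (*Crem*, *Sik1*, *Pde4b*, *Pde4d*, *Pde10a*, *Dusp1* and *Rgs2*) were followed library by library in newborn testes and forebrain. The 10 genes were selected by name from the 55359 genes of the count table, on earlier results of these same libraries, so their differences from WT are given as a description. Counts of members past a threshold against WT stand beside the share of all genes, with nothing read from them. In testes, the mean of each of the 10 genes was lower in both mutant genotypes than in WT mice, and the members furthest from WT were *Nr4a3* and *Nr4a2*. In forebrain, the levels of the NR4A genes overlapped between the genotypes, and only *Sik1*, *Dusp1* and *Pde4d* were lower than in WT by more than the SE in both genotypes.

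The study asked whether osteocalcin present before birth, made by the mother or by the embryo, shapes how organs of the offspring work after birth. All 17 libraries came from male pups at postnatal day 1 of the *Ocn*_GK strain, in which the osteocalcin genes were deleted by homologous recombination, on a 129/SvEv background. Testes were taken from 2 WT pups born from WT mothers, from 3 *Ocn*+/− pups and from 3 *Ocn*−/− pups, and the pups of both mutant genotypes had *Ocn*−/− mothers. Forebrain was taken from 3 pups of each of these genotypes, and the labels name this tissue hippocampus, whereas the methods name forebrain including the hippocampus. Since WT pups had only WT mothers, a comparison with WT joins 3 factors (genotype of the pup, genotype of its mother, and litter), which cannot be told apart. Between *Ocn*−/− and *Ocn*+/− pups the mother's genotype was the same. The study collected tissues of all genotypes in the same evening hour. The labels do not state litters, so the p-values given below measure the spread between these samples.

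Cyclic AMP activates protein kinase A, which phosphorylates the transcription factor CREB on cAMP response elements (CREs) in the promoters of its target genes. The NR4A receptors are such targets, orphan nuclear receptors made soon after a hormonal or neuronal stimulus, and in Leydig cells *Nr4a1* follows luteinizing hormone and acts on steroidogenic genes. Several other targets shut the signal off again: CREM isoforms occupy CREs, SIK1 keeps the CREB coactivators in the cytoplasm, phosphodiesterases break down cAMP, DUSP1 dephosphorylates MAP kinases and RGS2 quenches G proteins.

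The promoters of the members were searched for CREs because these are the elements by which cAMP acts on its targets. The 250 bases before the start of each gene's canonical transcript were read from the mouse genome (GRCm39) and searched on both strands for the full palindrome TGACGTCA, for its half-site TGACG, which the palindrome holds on each strand, and for the NR4A response element AAAGGTCA. The palindrome occurred in 2 of the 10 members, *Sik1* and *Dusp1*, and in 1.69% of 21627 protein-coding promoters of the same length. The half-site occurred in 6 of the 10 and in 18% of all promoters, and the NR4A element in 0 of the 10 and in 1.15%. The windows of *Nr4a2* and *Pde4d* lay in annotated exons with all 250 bases and that of *Pde10a* with 194, and these are 3 of the 4 members without a half-site. A match describes letters in this window and not a site in use. Shown are the 3 windows with a match that held at most 26 bases of an annotated exon, and stretches of 30 bases from *Nr4a1* and *Dusp1*, whose windows overlap exons of longer transcripts, while the window of *Crem*, with 1 half-site, is not shown. All are written 5′ to 3′ on the strand of the gene, with the matches to the half-site or palindrome in capitals. The *Nr4a3* window (chr4:48044903-48045152, plus strand) held 3 half-sites, that of *Sik1* (chr17:32074819-32075068, minus strand) the palindrome and 3 separate half-sites, and that of *Rgs2* (chr1:143879900-143880149, minus strand) 2 half-sites. The stretch of *Nr4a1* (chr15:101164492-101164521, plus strand) holds both half-sites of its window and that of *Dusp1* (chr17:26727571-26727600, minus strand) its palindrome.
Nr4a3: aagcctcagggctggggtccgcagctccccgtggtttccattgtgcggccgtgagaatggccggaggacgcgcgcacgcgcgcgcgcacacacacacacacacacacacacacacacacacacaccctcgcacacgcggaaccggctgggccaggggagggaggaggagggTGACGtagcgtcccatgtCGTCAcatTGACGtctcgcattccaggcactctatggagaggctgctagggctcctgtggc
Sik1: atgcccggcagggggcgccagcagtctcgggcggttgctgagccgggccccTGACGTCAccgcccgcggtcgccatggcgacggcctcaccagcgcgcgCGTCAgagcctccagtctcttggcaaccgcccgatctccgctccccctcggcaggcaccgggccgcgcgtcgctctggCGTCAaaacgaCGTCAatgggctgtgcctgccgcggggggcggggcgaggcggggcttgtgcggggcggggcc
Rgs2: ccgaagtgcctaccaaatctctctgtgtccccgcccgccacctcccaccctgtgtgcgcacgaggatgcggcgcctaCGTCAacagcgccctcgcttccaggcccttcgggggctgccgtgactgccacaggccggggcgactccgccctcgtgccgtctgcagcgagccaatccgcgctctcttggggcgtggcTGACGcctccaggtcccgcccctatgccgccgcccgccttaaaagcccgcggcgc
Nr4a1: tgCGTCAatggaaccccgcgtgCGTCAcgc
Dusp1: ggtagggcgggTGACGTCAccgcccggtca

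Counts per library summed to between 7302401 and 8289015 in testes and to between 6518151 and 14621584 in forebrain, and levels are CPM, counts scaled to library size with TMM normalization within an organ. The forebrain library WT 3 stood apart, with the lowest total, a TMM factor of 0.866 and a median correlation of 0.964 with the other forebrains, which had 0.976 to 0.982 each. The osteocalcin gene *Bglap* had 0 to 2 counts in every testis and 0 to 5 in every forebrain and *Bglap2* had 0 counts in every library, so the genotypes could not be checked on the deleted genes at this depth. The markers of Sertoli and germ cells were all detected in testes, and of the 8 Leydig markers *Hsd3b6* was listed at 0 in every WT and *Ocn*−/− testis and at 0.1262 CPM or less in *Ocn*+/− testes. *Lep* was at 0 in every testis, and the 6 neuron markers summed to between 5836 and 6412 CPM in forebrain, where *Dppa4*, *Cidec* and *Lep* were at 0. In these bulk samples fewer cells that express a gene and less RNA per cell cannot be told apart.

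*Nr4a1* (ENSMUSG00000023034.8, GRCm39 chromosome 15, 101151980 to 101172681), the NR4A receptor of steroidogenic cells, reached 223 and 226 CPM in the WT testes. It had 65.9, 64.0 and 84.9 CPM in the *Ocn*+/− testes and 49.1, 36.1 and 69.9 CPM in the *Ocn*−/− testes. Every mutant testis thus lay below both WT testes, and the genotypes of the mutants overlapped. Means of 31.9% (*Ocn*+/−) and 23.0% (*Ocn*−/−) of the WT mean correspond to log2 differences of −1.65 (SE 0.22) and −2.12 (SE 0.223). Of the exon bases of *Nr4a1*, 6.02% overlap an antisense gene, and the sources used here do not state whether counting used the strand.

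*Nr4a2* (ENSMUSG00000026826.14, chromosome 2, 56996842 to 57014331), known for its role in midbrain dopamine neurons, had 67.5 and 40.3 CPM in WT testes. It had 4.38, 3.28 and 3.16 CPM in *Ocn*+/− and 5.69, 4.97 and 3.41 CPM in *Ocn*−/− testes. The lowest WT testis was therefore far above the highest mutant testis, although the WT testes themselves differed. Means were 6.7% of WT for *Ocn*+/− and 8.71% for *Ocn*−/− testes, with log2 differences of −3.89 (SE 0.27) and −3.51 (SE 0.261).

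*Nr4a3* (ENSMUSG00000028341.10, chromosome 4, 48045153 to 48086447), the third receptor of the family, was nearly lost from the mutant testes. The WT testes gave 348 and 178 counts, or 45.1 and 22.5 CPM. In *Ocn*+/− testes 2, 2 and 7 counts were left, or 0.266, 0.252 and 0.963 CPM, and in *Ocn*−/− testes 32, 9 and 6 counts, or 3.79, 1.15 and 0.758 CPM. The groups did not overlap with WT, and the *Ocn*−/− testis 1 held more than any other mutant testis. For *Ocn*+/− testes the log2 difference from WT was −6.07 (SE 0.687), for *Ocn*−/− testes −4.12 (SE 0.568), and leaving out single libraries moved it within −6.94 to −5.48 and −5.10 to −3.53.

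**Figure D1:**
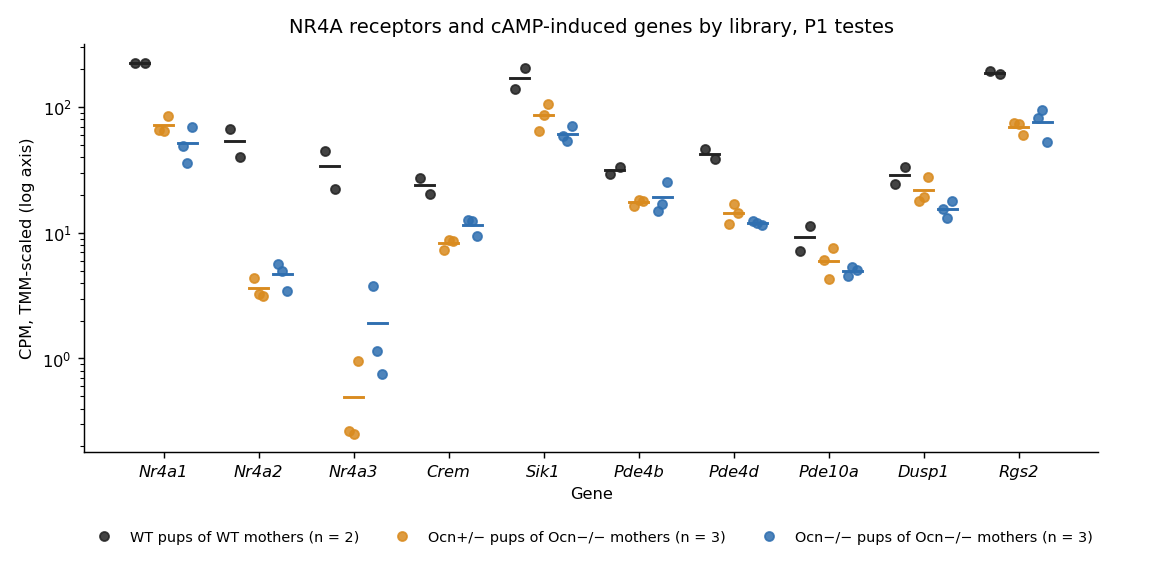
CPM of the 10 genes (log axis) in each testis library, with black points for 2 WT, orange for 3 *Ocn*+/− and blue for 3 *Ocn*−/− pups, and bars at the mean. For 8 of the 10 genes the 6 mutant testes sit under both WT testes, and *Nr4a3* falls from 22.5 CPM or more in WT to 3.79 CPM or less.

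Of the members that feed back on CREB, *Crem* (chromosome 18, 3260980 to 3337748), the cAMP response element modulator, had 27.3 and 20.3 CPM in WT, 7.31, 8.83 and 8.66 CPM in *Ocn*+/− and 12.6, 12.5 and 9.48 CPM in *Ocn*−/− testes. Log2 differences of *Crem* were −1.52 (*Ocn*+/−) and −1.05 (*Ocn*−/−). It was the member whose counts were not all whole, with 8 values that RSEM had divided among genes, and its overlap with an antisense gene covered 6.99% of its exon bases. *Sik1* (chromosome 17, 32058850 to 32074818), the salt-inducible kinase, had 138.8 and 205 CPM in WT, 64.8, 86.6 and 106 CPM in *Ocn*+/− and 59.0, 53.9 and 71.2 CPM in *Ocn*−/− testes. Both genes were below WT in every mutant testis, with mean levels of *Sik1* at 49.9% and 35.7% of WT.

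The 3 phosphodiesterases moved to different extents. *Pde4d* (chromosome 13, 108586482 to 110092497), a cAMP-specific enzyme of long and short isoforms, had 46.3 and 38.6 CPM in WT, 11.8, 16.9 and 14.4 CPM in *Ocn*+/− and 12.3, 12.0 and 11.6 CPM in *Ocn*−/− testes. Its mean was 33.9% and 28.2% of WT, and no mutant testis reached WT. *Pde4b* (chromosome 4, 101944740 to 102465716), a related enzyme, had 29.4 and 33.4 CPM in WT, 16.5, 18.2 and 18.01 CPM in *Ocn*+/− and 14.9, 16.95 and 25.4 CPM in *Ocn*−/− testes, so the *Ocn*−/− testis 3 came close to WT. *Pde10a* (chromosome 17, 8744204 to 9205482), which breaks down cAMP and cGMP and is abundant in striatal neurons, was low, with 7.13 and 11.4 CPM in WT, 6.11, 4.29 and 7.56 CPM in *Ocn*+/− and 4.51, 5.35 and 5.06 CPM in *Ocn*−/− testes. The *Ocn*+/− testis 3 overlapped with WT for *Pde10a*, and log2 differences of *Pde10a* were −0.63 and −0.89.

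Of the members outside the cAMP loop itself, *Rgs2* (chromosome 1, 143875076 to 143879899), which acts on Gq, had 192.3 and 182.2 CPM in WT, 74.5, 73.8 and 60.4 CPM in *Ocn*+/− and 81.2, 95.3 and 53.1 CPM in *Ocn*−/− testes. No mutant testis reached WT, with log2 differences of −1.43 and −1.29, and 11.33% of its exon bases overlap an antisense gene. *Dusp1* (chromosome 17, 26724564 to 26781102), the MAP kinase phosphatase, had 24.2 and 33.2 CPM in WT, 17.9, 19.4 and 27.9 CPM in *Ocn*+/− and 15.4, 13.1 and 17.9 CPM in *Ocn*−/− testes. The *Ocn*+/− testis 3 again lay above the lower WT testis, and the log2 differences were −0.40 and −0.89. Without this testis the *Ocn*+/− differences of *Pde10a* and *Dusp1* were −0.83 and −0.62, and neither passed the threshold (edgeR adjusted p = 0.194 and 0.146).

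Over the 16361 genes tested in testes with edgeR's quasi-likelihood test, 8 of the 10 members had an adjusted p under 0.05 and lay lower in *Ocn*+/− testes, all but *Pde10a* and *Dusp1*, where 4.36% of all genes were called lower. In *Ocn*−/− testes 8 of the 10 were called lower, all but *Pde4b* and *Pde10a*, against 3.09% of all genes. Members had a median log2 difference of −1.48 (*Ocn*+/−) and −1.39 (*Ocn*−/−), and all genes one of 0.01 and −0.01. For 8 of the 10 members, all but *Pde10a* and *Dusp1*, the highest of the 6 mutant testes stayed under the lower WT testis, as it did for 13.6% of all genes. With the *Ocn*−/− testes alone, all 10 members and 22.1% of all genes lay under both WT testes. The members were chosen for this difference, so nothing is read from these counts. Without the WT testis 1 the members' median log2 difference was −1.335 in *Ocn*+/− and −1.462 in *Ocn*−/− testes. Without the WT testis 2 it was −1.536 and −1.27. Fewer members were past the threshold in each of these fits, and the lone WT testis was then assumed to vary like the other groups.

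Several marker lists had lower summed levels in mutant testes. The 8 Leydig cell markers summed to between 1873 and 1985 CPM in WT, between 910.4 and 1472 CPM in *Ocn*+/− and between 927.7 and 1367 CPM in *Ocn*−/− testes, and 1 of the 7 tested, the luteinizing hormone receptor *Lhcgr*, was called lower in each genotype. The members of this list did not all lie lower: *Hsd3b1* had 302.4 to 320.3 CPM in WT, 290.6 to 367.3 in *Ocn*+/− and 333.8 to 456.3 CPM in *Ocn*−/− testes, and *Nr5a1* had 182.3 to 212.8, 196.5 to 222.6 and 185.3 to 260.7 CPM. The 6 endothelial markers summed to between 539.4 and 552.1 CPM in WT, between 339.7 and 403.3 CPM in *Ocn*+/− and between 321 and 361.8 CPM in *Ocn*−/− testes, and 3 and 5 of the 6 were called lower. *Cldn5* of this list went the other way without a call, with 7.774 to 9.968 CPM in WT and 11.96 to 13.63 in *Ocn*+/− testes. In *Ocn*−/− testes it had 9.603 to 12.23 CPM and overlapped with WT. *Hsd3b6*, at or near 0 in every testis, was the Leydig marker that was not tested, and no endothelial marker was at 0. The 6 markers of smooth muscle and peritubular myoid cells summed to between 914.6 and 1132 CPM in WT, between 780.1 and 991.5 CPM in *Ocn*+/− and between 665.3 and 887.1 CPM in *Ocn*−/− testes, with 0 of 6 called. The 6 macrophage markers summed to 99.64 to 108.5, 93.92 to 126.4 and 50.55 to 92.94 CPM in these groups, with *Cd68* called higher in *Ocn*+/− and 0 of 6 called in *Ocn*−/− testes. For the 6 erythroid markers the sums were 2597 to 6861, 864.5 to 3941 and 1315 to 2515 CPM, with 0 of the 5 tested called. The sum of each of these 3 lists thus lay below WT in every *Ocn*−/− testis and overlapped with WT in *Ocn*+/− testes. Single markers did not all follow the sums: *Cd68* had 3.369 to 3.785 CPM in WT and 4.588 to 7.113 CPM in *Ocn*−/− testes. The 8 Sertoli cell markers overlapped between WT and both mutant genotypes, with 1418 to 1560, 1477 to 1741 and 1376 to 2086 CPM. *Sox9* was the Sertoli marker called higher in each genotype, with 49.37 to 50.85 CPM in WT, 82.78 to 112.6 in *Ocn*+/− and 95.2 to 123.2 CPM in *Ocn*−/− testes. The 8 germ cell markers overlapped too, with 376.7 to 436.1, 355.1 to 413.6 and 363.8 to 402.8 CPM and 0 of 7 called. The part of any of these cells in the lower levels of the members was not tested.

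In forebrain, *Nr4a1* was a low gene, with 17.7, 16.01 and 14.9 CPM in WT, 14.5, 14.3 and 20.8 CPM in *Ocn*+/− and 9.26, 11.1 and 16.9 CPM in *Ocn*−/− mice. The genotypes overlapped, and the log2 difference was 0.02 (SE 0.203) and −0.40 (SE 0.207). The *Ocn*+/− forebrain 3 held the highest level of *Nr4a1*, the other *Ocn*+/− forebrains lay below every WT forebrain, and without that library the *Ocn*+/− difference was −0.18 (edgeR adjusted p = 0.703). *Nr4a2* had 75.7, 79.5 and 75.6 CPM in WT, 81.6, 75.1 and 75.6 CPM in *Ocn*+/− and 94.3, 89.0 and 77.9 CPM in *Ocn*−/− forebrains. *Nr4a3* had 71.6, 67.0 and 74.7 CPM in WT, 85.8, 71.1 and 67.8 CPM in *Ocn*+/− and 101.1, 93.8 and 72.9 CPM in *Ocn*−/− forebrains. The *Ocn*−/− forebrains 1 and 2 thus held the 2 highest levels of *Nr4a2* and *Nr4a3* and the 2 lowest of *Nr4a1*, whereas the *Ocn*−/− forebrain 3 lay within the WT range for each of these 3 genes.

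*Sik1* and *Pde4d* were the members that all 6 mutant forebrains held at a lower level than every WT forebrain, an order that 8.57% of all genes showed. *Sik1* had 44.8, 50.5 and 55.5 CPM in WT, 32.1, 39.5 and 42.6 CPM in *Ocn*+/− and 37.9, 32.6 and 33.1 CPM in *Ocn*−/− forebrains, log2 differences of −0.39 (SE 0.121) and −0.53 (SE 0.122). *Pde4d* had 61.0, 65.5 and 73.3 CPM in WT, 54.9, 58.1 and 52.8 CPM in *Ocn*+/− and 60.5, 53.7 and 59.6 CPM in *Ocn*−/− forebrains, so that the *Ocn*−/− forebrain 1 came close to the lowest WT forebrain. *Dusp1* had 25.5, 32.4 and 32.0 CPM in WT, 18.4, 20.3 and 27.5 CPM in *Ocn*+/− and 19.7, 20.8 and 19.9 CPM in *Ocn*−/− forebrains. For *Dusp1* only the *Ocn*+/− forebrain 3 overlapped with WT, and the log2 differences were −0.43 and −0.56. Without this forebrain the *Ocn*+/− difference was −0.62 and passed the threshold (edgeR adjusted p = 0.036).

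*Pde4b* and *Pde10a* were the 2 members that every *Ocn*−/− forebrain held at a higher level than every WT forebrain, an order that 12.9% of all genes showed, and neither was past the threshold (edgeR adjusted p = 0.163 and 0.0645). *Pde10a*, the most abundant member there by counts, had 178.7, 172.9 and 161.3 CPM in WT, 181.2, 175 and 146.9 CPM in *Ocn*+/− and 216.4, 204.4 and 200.6 CPM in *Ocn*−/− forebrains, a log2 difference of 0.28 (SE 0.0849) in *Ocn*−/− mice. The 8 markers of striatal projection neurons summed to between 188.2 and 222.1 CPM in WT, between 209 and 282.8 CPM in *Ocn*+/− and between 274.6 and 311.7 CPM in *Ocn*−/− forebrains, with 3 of the 8 called higher in *Ocn*−/− mice, and their part in the level of *Pde10a* was not tested. *Pde4b* had 76.0, 65.5 and 56.9 CPM in WT, 65.1, 78.4 and 80.6 CPM in *Ocn*+/− and 78.4, 81.2 and 79.4 CPM in *Ocn*−/− forebrains. *Crem* ranged from 5.68 to 8.14 CPM and *Rgs2* from 42.3 to 65.7 CPM over the 9 forebrains, with overlap between all genotypes.

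Other marker lists differed from WT in forebrain as well. The 6 choroid plexus markers summed to between 582.1 and 749.4 CPM in WT, between 582.9 and 870.7 CPM in *Ocn*+/− and between 328.4 and 538.5 CPM in *Ocn*−/− forebrains, with *Aqp1* called lower in *Ocn*−/− mice. *Ttr* alone made up most of this sum, with 540.3 to 711.1 CPM in WT and 304.7 to 509.1 CPM in *Ocn*−/− forebrains. It was not called in *Ocn*−/− mice (edgeR adjusted p = 0.258). The 6 erythroid markers summed to 522.4 to 719.4, 355.8 to 407.4 and 486.4 to 598.6 CPM in these groups, with 3 of the 5 tested called lower in *Ocn*+/− mice, and the 6 astroglia markers to 761.4 to 847.6, 947.2 to 988.4 and 827.2 to 1095 CPM, with *Gfap* called higher in each genotype. The 6 endothelial markers overlapped, with 159.2 to 185.1, 141.2 to 168.9 and 134 to 186.4 CPM, and *Pecam1* and *Kdr* were called lower in *Ocn*+/− and *Kdr* in *Ocn*−/− mice. The low markers of smooth muscle cells summed to 13.13 to 14.95, 9.609 to 13.05 and 9.903 to 11.59 CPM, with 0 of 4 called. The 6 markers of cortical and hippocampal excitatory neurons overlapped, with 1272 to 1434, 1265 to 1296 and 1076 to 1451 CPM, and *Slc17a7* was called higher in *Ocn*+/− mice, with 70.09 to 100.6 CPM in WT, 120.3 to 140.5 in *Ocn*+/− and 97.99 to 131.6 CPM in *Ocn*−/− forebrains. The part of these cells in the levels of the members in forebrain was not tested.

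**Figure D2:**
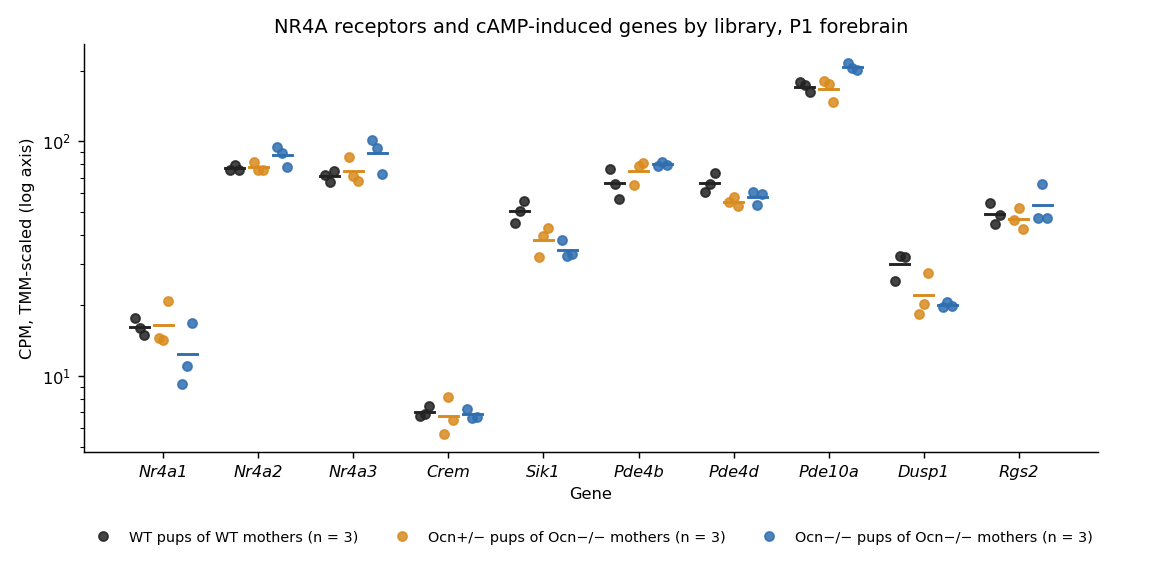
CPM of the 10 genes (log axis) in each forebrain library, with black points for 3 WT, orange for 3 *Ocn*+/− and blue for 3 *Ocn*−/− pups, and bars at the mean. Every *Ocn*−/− forebrain lies below every WT forebrain for 3 of the 10 genes and above every WT forebrain for 2. The *Sik1* levels of all mutants (42.6 CPM or less) lie below those of WT (44.8 CPM or more).

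Of the 16076 genes tested in forebrain, 3.89% were called in *Ocn*+/− against WT, and 0 of the 10 members were, with 1 called by DESeq2. In *Ocn*−/− mice 2 of the 10 members, *Sik1* and *Dusp1*, were called lower, and 3.05% of all genes were. Since the members were chosen with these libraries known, nothing is read from these counts either. The count of 2 was 0 without WT 2, WT 3 or *Ocn*−/− 2, where 363, 189 and 278 of all genes were called, from 780. It was 1 without *Ocn*−/− 1, where 478 of all genes were called. The median log2 difference of the members was −0.04 in *Ocn*+/− and 0.04 in *Ocn*−/− forebrains, and that of all genes was 0.01 in both. With libraries scaled by size alone the median of all genes rose by 0.079 in *Ocn*+/− and by 0.099 in *Ocn*−/− forebrains, and by 0.078 and 0.079 in testes. The share of called genes that were lower then went from 69% to 52.3% and from 62.8% to 35.5% in forebrain, and from 52.8% to 31.9% and from 54.9% to 34.8% in testes. All 10 members stayed below WT in both mutant testes under this scaling.

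**Figure D3:**
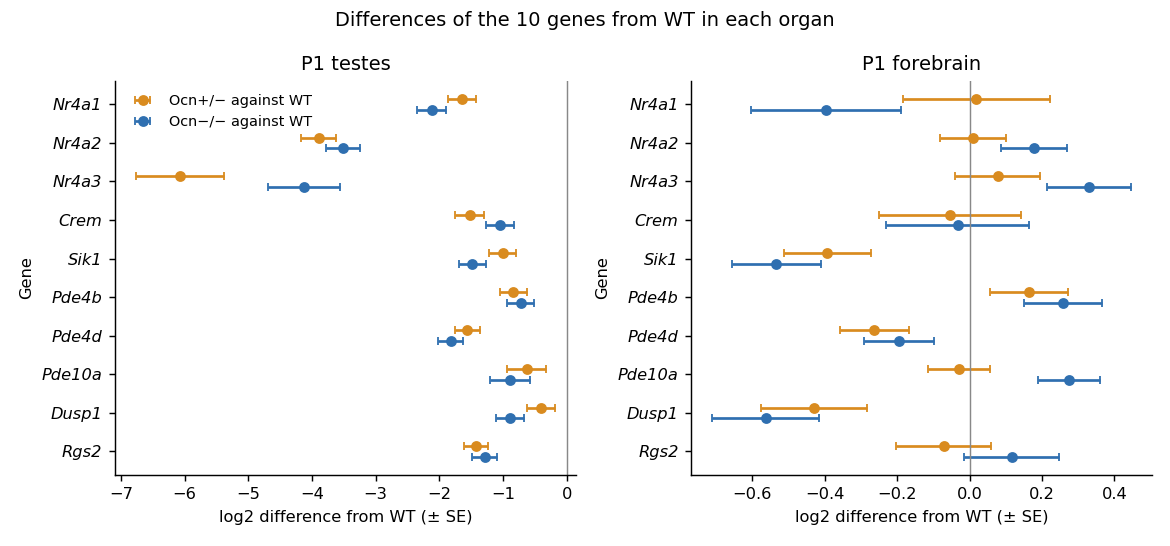
Log2 difference from WT (points) and its SE (bars) of the 10 genes in testes on the left and forebrain on the right, orange for *Ocn*+/− and blue for *Ocn*−/− mice, with different scales on the 2 axes. All points in testes lie below 0, down to −6.07 for *Nr4a3*, whereas those in forebrain lie between −0.56 and 0.33.

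Between *Ocn*−/− and *Ocn*+/− pups, whose mothers had the same genotype, the same test was run. The members were chosen with these mutant libraries known, so its p-values are not independent of that choice. In testes 0 of the 10 members and 0% of all genes were past the threshold in edgeR's quasi-likelihood test. At an unadjusted p under 0.05 there were 5 of the 10 members and 1881 of the 16361 genes tested, and DESeq2 called 0 members and 76 genes. Without a filter on low counts 252 genes and 3 members were called, *Nr4a1* (edgeR adjusted p = 0.0393), *Nr4a3* (0.00716) and *Sik1* (0.028). The 5 members were *Nr4a1*, *Sik1* and *Dusp1*, which were lower in *Ocn*−/− testes, and *Nr4a3* and *Crem*, which were higher. *Nr4a3* differed by 1.95 on the log2 scale (SE 0.823, edgeR adjusted p = 0.415) and *Nr4a1* by −0.47 (SE 0.207, edgeR adjusted p = 0.427). The 95% interval of the *Nr4a1* difference ran from −0.87 to −0.06. In forebrain 0 of the 10 members were past the threshold, where 0.00622% of all genes were, and DESeq2 called 0 members. At an unadjusted p under 0.05 there were 2 of the 10 members, *Nr4a3* and *Pde10a*, and 515 of the 16076 genes tested. *Pde10a* was higher in *Ocn*−/− forebrains by 0.31 on the log2 scale (SE 0.0841, edgeR adjusted p = 0.999). It lay in 3 of 3 *Ocn*−/− forebrains above every *Ocn*+/− forebrain, an order that 3.65% of all genes showed.

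The organs themselves differed in which of these genes they held. In a joint fit of all 17 libraries over 17800 genes, 9 of the 10 members differed between WT forebrain and WT testes, where 71.1% of all genes did. *Nr4a1* was lower in forebrain by 3.46 on the log2 scale (SE 0.257, edgeR adjusted p = 2.39e-09), an 11-fold difference, whereas *Nr4a2* was higher there by 0.83 (SE 0.164, edgeR adjusted p = 8.4e-05) and *Nr4a3* by 1.39 (SE 0.303, edgeR adjusted p = 0.000813). *Crem*, *Sik1* and *Rgs2* were lower in forebrain, with log2 differences of −1.44, −1.46 and −1.61. The 3 phosphodiesterases were higher in forebrain, *Pde10a* by 4.53 (SE 0.182, edgeR adjusted p = 8.26e-17), *Pde4b* by 1.40 and *Pde4d* by 0.96, and *Dusp1* differed by 0.37 (SE 0.203, edgeR adjusted p = 0.105). Each of the 10 differences kept its direction in the 21 alternatives run.

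Levels were also divided by the kb of exon of each gene, joined over all its annotated transcripts. This length was 10903 bases for *Nr4a1* and 3627 for *Rgs2*, and it can exceed that of the transcripts expressed. The order between genes therefore holds for this length alone. *Rgs2* had the highest level of the 10 in WT testes, 45.9 CPM per kb, followed by *Nr4a1* with 18.3, *Sik1* with 12.6 and *Dusp1* with 7.68. *Nr4a2* (5.83) and *Nr4a3* (5.01) overlapped between the WT testes, and so did *Dusp1* and *Nr4a2*. *Pde4d*, *Pde4b*, *Crem* and *Pde10a* followed with 2.6, 2.36, 1.88 and 0.627 CPM per kb, of which the 2 *Pde4* genes overlapped. In WT forebrain *Rgs2* (15), *Pde10a* (14.5) and *Nr4a3* (13.2) led, with neighbours that overlapped between libraries, before *Nr4a2* with 10.4 and *Dusp1* with 9.99 CPM per kb. *Pde4b* (6.2), *Pde4d* (5.09) and *Sik1* (4.6) overlapped with their neighbours too, and *Nr4a1* and *Crem* were lowest with 1.65 and 0.694. By this length *Nr4a1*, second in WT testes, was thus ninth of the 10 in WT forebrain, as the plot of levels per exon length shows.

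**Figure D4:**
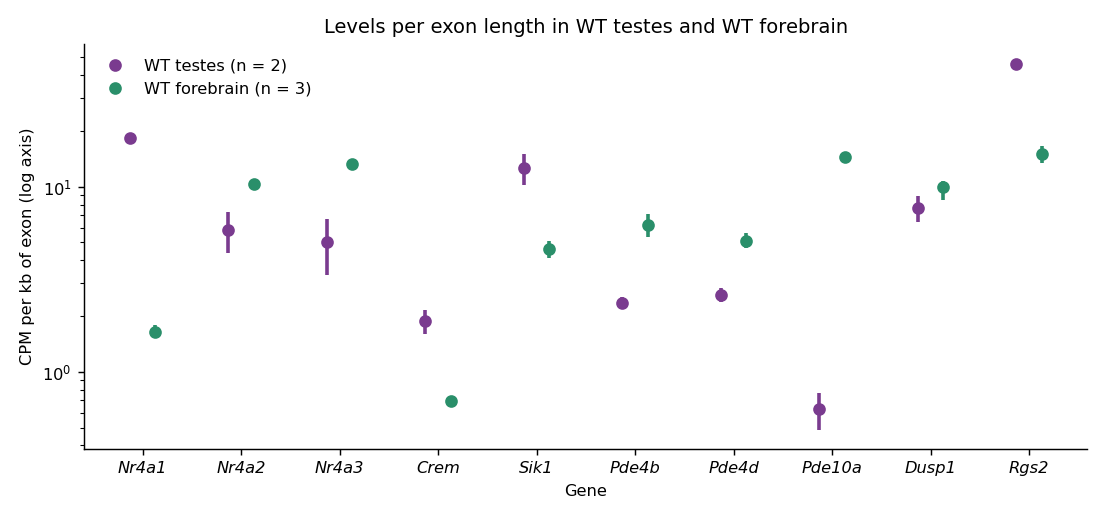
Mean CPM per kb of exon (points, log axis) of the 10 genes in WT testes (purple, n = 2) and WT forebrain (green, n = 3), with lines from the lowest to the highest library. *Nr4a1* is at 18.3 in testes and 1.65 in forebrain, and *Pde10a* is at 0.627 and 14.5.

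The genes whose levels followed *Nr4a1* most closely over the 8 testes were *Per1* (Pearson r of log2 CPM 0.986, Spearman rho 0.857), a clock gene that CREB also induces, *Epas1* (0.979 and 0.976), which encodes the hypoxia-inducible factor HIF-2 alpha, *Eno1b* (0.974 and 0.905), *Fads1* (0.973 and 0.857), a fatty acid desaturase, and *H1f2* (0.972 and 0.929), a linker histone. They were found among 12499 genes with a mean of at least 5 CPM, and the points share the difference between the genotypes. Of the members, *Sik1* lay nearest to *Nr4a1* in testes (0.943 and 0.929) and by Pearson r *Crem* lay furthest (0.712 and 0.286), whereas by Spearman rho *Rgs2* (0.737 and 0.19) and *Nr4a2* (0.855 and 0.238) lay further. Over the 9 forebrains, with 11917 genes, the nearest were *Mir22hg* (0.942 and 0.9), *Pskh1* (0.942 and 0.917), *Prrt1* (0.916 and 0.817), *Ext2* (0.912 and 0.883) and *Sparc* (0.909 and 0.817). None of these 5 was among the 5 nearest in testes. Members ran against *Nr4a1* in forebrain, *Nr4a3* with −0.895 and −0.7, *Nr4a2* with −0.878 and −0.55 and *Pde10a* with −0.772 and −0.633, and the other 6 had a Pearson r between −0.443 and 0.474. These values describe the libraries and carry no test.

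The other genes of the pathway were read from 6 lists. These too were chosen with earlier results of these data known, so their p-values are not independent of that choice. Of the 31 genes that make up the cAMP signalling machinery, from adenylyl cyclases to CREB and its coactivators, 30 were tested in testes, where 8.25% of all genes were called in *Ocn*+/− and 5.64% in *Ocn*−/− mice. Of these, 3 were lower and 2 higher in *Ocn*+/− testes and 2 were lower and 1 higher in *Ocn*−/− testes, with list medians of 0.04 and −0.02 on the log2 scale. *Prkar2b*, a regulatory subunit of protein kinase A, averaged 380.3 CPM in WT, 181.7 in the *Ocn*+/− and 249 in the *Ocn*−/− group, and fell by 1.07 and 0.61 on the log2 scale (edgeR adjusted p = 0.000711 and 0.0239). *Adcy2*, an adenylyl cyclase, fell by 0.56 and 0.67 (edgeR adjusted p = 0.0222 and 0.0104). Called in a single genotype, and named here after their values were seen, were *Rapgef4* (−0.73), *Crtc1* (0.73) and *Crtc2* (0.65) in *Ocn*+/− and *Adcy7* (0.55) in *Ocn*−/− testes. Of 13 other cAMP phosphodiesterases 3 were lower in *Ocn*+/− testes, with log2 differences of −0.99 for *Pde2a*, −0.77 for *Pde8b* and −0.67 for *Pde8a*, and 0 were called in *Ocn*−/− testes, where the list median was −0.25 against −0.14 in *Ocn*+/− testes.

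Of the 20 other CREB target genes, 15 could be tested in testes, and 4 were lower in *Ocn*+/− and 5 in *Ocn*−/− mice, with none higher and medians of −0.69 and −0.87. Mean *Per1* levels were 147.8 ± 9.88 CPM in WT (SD, n = 2) and, with n = 3, 49.99 ± 5.38 in the *Ocn*+/− and 39.9 ± 8.96 in the *Ocn*−/− group, a fall of 1.56 and 1.89 on the log2 scale (edgeR adjusted p = 2.66e-05 and 7.7e-06). *Nfil3*, a bZIP repressor, held 52.4 ± 1.98 CPM in WT and fell to 15.2 ± 4.94 in *Ocn*+/− and 14.7 ± 1.08 CPM in *Ocn*−/− testes (edgeR adjusted p = 0.000162 and 0.000127). *Gem*, a small GTPase, fell by 0.88 and 1.04 on the log2 scale, and *Pck1*, the gluconeogenic enzyme, by 2.66 and 2.61 from 2.61 CPM in WT. The call of *Pck1* was lost in 6 of the 14 alternatives in each genotype. The fifth gene of *Ocn*−/− testes was *Ptgs2*, which encodes the cyclooxygenase of prostaglandin synthesis (log2 difference −3.36). The calls of *Per1* and *Nfil3* held in every alternative run in both genotypes.

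Of the 22 AP-1 and EGR immediate-early genes, which MAP kinase and calcium signals induce as well as cAMP, 20 were tested in testes. In *Ocn*+/− mice 3 were lower and 1 higher, and in *Ocn*−/− mice 4 were lower and 0 higher, with medians of −0.05 and −0.61. The *Ocn*+/− testis 3 that overlapped with WT for *Pde10a* and *Dusp1* stood apart in this list too, with 73.02 CPM of *Fos* against 3.321 and 4.417 in the other *Ocn*+/− testes and 15.81 to 21.2 in WT, and 76.6 CPM of *Fosb* against 1.063 and 0.7571 and, in WT, 7.515 to 9.211. It also held 211.8 CPM of *Egr1* against 77.58 and 79.12 and 98.46 CPM of *Klf4* against 38.39 and 40.51. Without this library the *Ocn*+/− median of the list was −0.56, with 6 genes lower and 0 higher, and over all alternatives run it lay between −0.56 and 0.10. The same list had 8 genes lower in *Ocn*−/− testes without this library, 10 with these 2 genotypes alone and 2 without the WT testis 2. *Fosl2* had a mean of 202.5 CPM in WT, 63.4 in *Ocn*+/− and 74.3 CPM in *Ocn*−/− testes, both lower (edgeR adjusted p = 3.78e-06 and 1.69e-05) and *Junb*, also a subunit of AP-1, fell to 5.89 and 3.22 CPM, with 16.3 CPM in WT (edgeR adjusted p = 0.00859 and 0.00047). *Btg2*, an antiproliferative factor, fell by 0.81 and 0.70 on the log2 scale. Called in a single genotype were *Egr4*, which was higher in *Ocn*+/− (1.46), and *Maff*, which was lower in *Ocn*−/− testes (−1.54). Of the other dual-specificity phosphatases, 10 were tested, 3 were lower and 2 higher in *Ocn*+/− and 2 lower and 1 higher in *Ocn*−/− testes. *Dusp5* fell by 1.21 and 1.40 and *Dusp4* by 1.03 and 1.25 on the log2 scale, whereas *Dusp7* rose by 1.13 and 0.98 (edgeR adjusted p = 0.0031 and 0.00689), and *Dusp9* (1.51) and *Dusp16* (−0.62) were called in *Ocn*+/− testes alone. Of 12 other RGS proteins tested, 1 was lower and 2 higher in *Ocn*+/− and 1 lower and 1 higher in *Ocn*−/− testes. *Rgs5*, a gene of pericytes, fell by 0.76 and 0.95 and *Rgs3* rose by 0.52 and 0.51 on the log2 scale, with *Rgs12* (0.61) called in *Ocn*+/− testes alone. Calls were lost without the WT testis 1 or 2 in at least one genotype for each gene of these lists called in both genotypes other than *Per1*, *Nfil3* and *Fosl2*.

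In forebrain, where 4.85% of all genes were called in *Ocn*−/− mice, fewer genes of these lists passed the test. Of the 31 genes of the cAMP machinery 0 were lower and 1, *Pkib* (1.19), was higher in *Ocn*+/− and 0 were called in *Ocn*−/− mice. Of the other phosphodiesterases 1 of 12, *Pde8a* (−1.30), was lower in *Ocn*+/− and 0 were called in *Ocn*−/− mice, and of the other CREB targets 1 of 17, *Per1*, was lower in each. *Per1* had 48.9 ± 3.3 CPM (SD, n = 3) in WT, 34.6 ± 4.83 in *Ocn*+/− and 31.9 ± 5.55 in *Ocn*−/− forebrains, and fell by 0.49 and 0.61 on the log2 scale (edgeR adjusted p = 0.0402 and 0.0122). *Jun*, the core subunit of AP-1, was at 57.9 ± 5.36 CPM in WT and fell to 38.8 ± 4.95 in *Ocn*+/− and 38.4 ± 2.85 CPM in *Ocn*−/− forebrains (edgeR adjusted p = 0.00807 and 0.00655), a call that held in every alternative run, and *Maff*, a small MAF factor, fell by 1.64 and 1.53 from a mean of 3.88 CPM. These were the 2 of 21 AP-1 and EGR genes called in each genotype, with list medians of −0.01 in *Ocn*+/− and −0.43 in *Ocn*−/− forebrains and 11 and 17 of the 21 genes below WT. The *Ocn*+/− forebrain 3, the highest of its group for *Nr4a1* and *Dusp1*, stood apart, with 20.03 CPM of *Fos* against 2.164 and 2.945 in the other *Ocn*+/− forebrains and 5.693 to 7.931 in WT, 17.54 CPM of *Fosb* against 0.8116 and 0.5425 and, in WT, 3.355 to 3.916, and 58.93 CPM of *Egr1* against 14.54 and 22.24 and, in WT, 40.42 to 50.34. Without this library the *Ocn*+/− median was −0.39, with 4 genes lower, and 6 genes were lower in *Ocn*−/− forebrains. With the 2 genotypes alone 7 genes were lower in *Ocn*−/− forebrains. *Dusp6*, which acts on ERK, fell by 0.46 and 0.56 and *Dusp16* by 0.83 and 0.69 on the log2 scale, among 2 and 3 of 9 phosphatases called lower, the third in *Ocn*−/− mice being *Dusp4* (−0.39). Of 15 RGS proteins *Rgs16* was lower in *Ocn*+/− (−0.70) and *Rgs19* higher in *Ocn*−/− mice (0.69). Without the forebrain WT 3 the calls of *Per1*, *Maff*, *Dusp16* and *Dusp6* were lost in both genotypes. Of the 15 alternatives in *Ocn*+/− mice, 6, 4, 3 and 5 lost the calls of these genes in this order. In *Ocn*−/− mice 2, 7, 7 and 1 of the 15 did. Between *Ocn*−/− and *Ocn*+/− mice 0 genes of the 6 lists were called in either organ, and without a filter on low counts 1 gene of the cAMP machinery, 1 other phosphodiesterase and 2 other CREB targets were called in testes and 1 AP-1 or EGR gene in forebrain. DESeq2 called 1 other phosphodiesterase in testes.

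**Figure D5:**
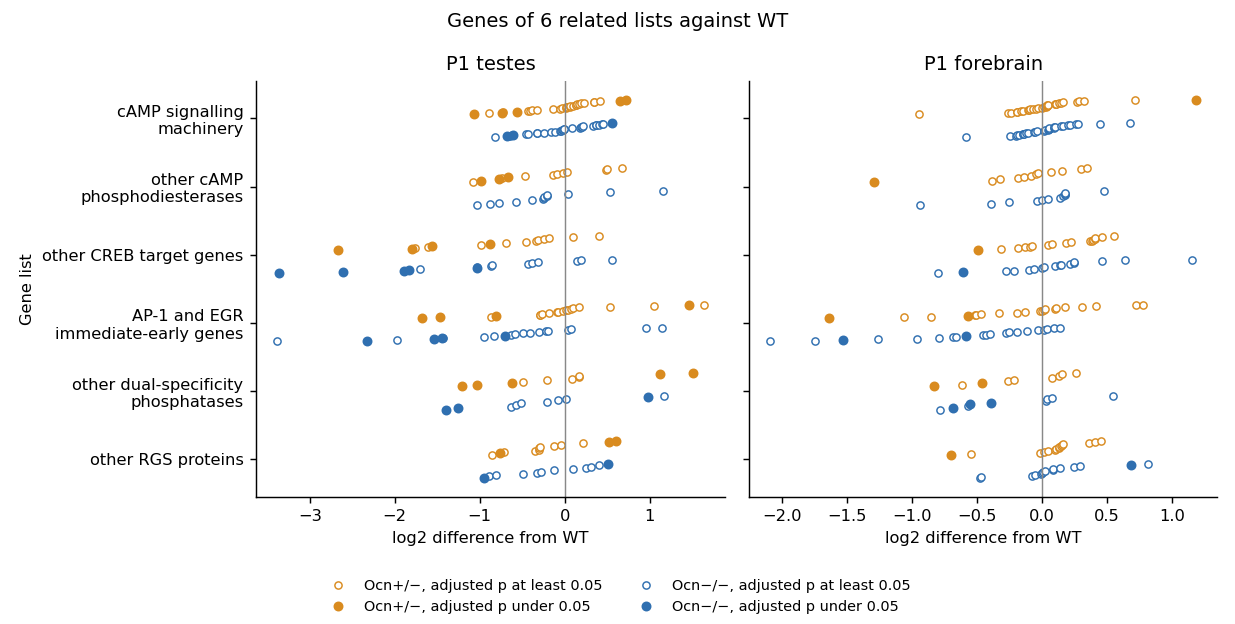
Log2 difference from WT of each tested gene of the 6 lists in testes on the left and forebrain on the right, orange for *Ocn*+/− and blue for *Ocn*−/− mice, filled where the edgeR adjusted p was under 0.05, with different scales on the 2 axes. Among the other CREB targets of testes the filled points all lie below 0, 4 in *Ocn*+/− and 5 in *Ocn*−/− mice.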

How the data were processed

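RNA of 8 testes and 9 forebrains was sequenced from poly-A mRNA. Per the submitters' processing notes the reads were trimmed with Trim Galore 0.6.6, aligned to GRCm39 with STAR 2.7.8a and counted with RSEM 1.3.3. The authors deposited expected counts per gene without normalization, which were rounded to whole counts. Identifiers were matched to GENCODE names for 54749 of the 55359 genes. Each organ was fitted alone, with its 3 genotypes together, by edgeR 4.0.16 (filterByExpr, TMM, quasi-likelihood test) in R 4.3.3, with genotype as the term and two-sided p-values adjusted (Benjamini-Hochberg) across every tested gene, at a threshold of 0.05. WT organs were compared in a joint fit of the 6 groups. The fits were checked on simulated counts. Each group held 2 or 3 libraries, and intervals are the estimate ± 1.96 SE.

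The 10 members, the 6 lists and the marker lists were chosen with earlier results of these data known. Named genes are the members, the list genes called in both mutant genotypes in the same direction in an organ (at most 6 per list), and the 5 genes nearest to *Nr4a1* by Pearson correlation per organ, with other genes of short counts named after their values were seen. Other settings tried were normalization by upper quartile or by library size alone, DESeq2 1.42.0, no filter on low counts, the 2 genotypes compared alone, the replicate number as a block and each library left out in turn.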

Additional observations from a re-analysis of the deposited data

Results flagged for a closer look

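*Pde4b* and *Pde10a* took opposite orders in the 2 organs of *Ocn*−/− mice. Every *Ocn*−/− testis lay below both WT testes, with log2 differences of −0.72 for *Pde4b* and −0.89 for *Pde10a*. Every *Ocn*−/− forebrain lay above every WT forebrain, with log2 differences of 0.26 for *Pde4b* and 0.28 for *Pde10a*. None of these 4 differences was past the threshold in the main fit, with edgeR adjusted p = 0.0539 and 0.0977 in testes and 0.163 and 0.0645 in forebrain. Under some of the alternative settings *Pde4b* passed it in testes and *Pde10a* in forebrain, and the other 2 differences passed it in none. Over the 14590 genes tested in both organs, 1.39% showed this opposite order. Of all genes tested in testes 22.1% showed the order there, and of those tested in forebrain 12.9%. The difference between the organs was not tested. Single outlying libraries were not tested in these groups of 2 or 3.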

How the results depend on the processing

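Over all alternatives the differences of the 10 members from WT kept their sign in testes in 140 of 140 values in each genotype, and turned sign in forebrain in 13 of 150 values in *Ocn*+/− and 3 of 150 in *Ocn*−/− mice. For the named genes of the 6 lists, 90 of 542 values lost their call and 0 turned sign. Counts of called genes depended on the settings. Without a filter on low counts they were 2149 (from 1350) and 1763 (from 922) in *Ocn*+/− and *Ocn*−/− testes, 252 (from 0) between the mutant testes with 3 of the 10 members (*Nr4a1*, *Nr4a3* and *Sik1*, named after their values were seen), 1265 (from 625) and 1502 (from 780) in the forebrains, with 2 and 4 members, and 34 (from 1) between the mutant forebrains. With only the 2 genotypes compared they were 2084 in *Ocn*+/− testes and 0 between mutant forebrains, and the members' median between mutant testes was −0.25 in place of −0.07. DESeq2 gave 76 genes between mutant testes, 5 between mutant forebrains and 1 member in *Ocn*+/− forebrains. Library size alone gave 369 genes in *Ocn*+/− forebrains, 2 between mutant forebrains, 1 member and a members' median of 0.14 in *Ocn*−/− forebrains and a median of 0.28 in place of 0.60 between the WT organs, where upper quartile normalization gave 0.47. The cause was not tested.

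When each library was left out in turn, the count in testes ran from 118 to 2019 for *Ocn*+/−, 85 to 1559 for *Ocn*−/− and 0 to 47 between them, with the lowest counts against WT without the WT testis 2. In forebrain it ran from 183 to 830 for *Ocn*+/− and 189 to 919 for *Ocn*−/− mice, lowest without WT 3, and from 1 to 2 between them, with 0 to 1 and 0 to 3 members past the threshold against WT. The members' median ran from −0.19 to 0.01 between mutant testes, from −0.04 to 0.09 in *Ocn*−/− forebrains and from 0.57 to 0.67 between the WT organs.

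The labels number the replicates, but nothing states a shared litter or day, and deviations of same-numbered libraries correlated by −0.094 to 0.087 in testes and −0.037 to 0.146 in forebrain, so the numbers were not taken as pairs. With the number as a replicate block 966 and 836 genes were called in *Ocn*+/− and *Ocn*−/− testes, 1 between them, and 768, 1140 and 1 in forebrain. With the block the members past the threshold were 8 and 9 in testes and 0 and 3 in forebrain. Depth limits *Nr4a3* in mutant testes, where 2 to 32 counts per library were left.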
